A study of Mus musculus with 6 samples.

Results

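Glomerular endothelial cells line the capillaries of the glomerulus and form the inner layer of the filtration barrier, opposite the podocytes. They are thin and fenestrated, are held together by junctions of cadherin and claudin proteins, and carry a glycocalyx on the side of the blood. Their identity is maintained by transcription factors of the ETS, SOX and GATA families, and they depend on signals from neighbouring podocytes, foremost vascular endothelial growth factor. The genes described here are 40 known endothelial or glomerular endothelial genes, chosen by name. Of these, 39 had at least 1 probe set paired with that gene alone, out of 18194 genes on the array with such a probe set. Tspan7 had no probe set paired with it and was not analysed here. The 39 genes have 68 of the 45101 probe sets of the array, and the brightest probe set of each gene, by its mean over all arrays, stands for that gene.

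Glomeruli were isolated from 3 dendrin knockout mice (Dendrin KO) and 3 littermate control mice (wild type), all 13 months old. The labels give their genetic background as 129S6SvEv/C57BL6, which the methods name as the origin of the embryonic stem cells, with later backcrossing of the mice onto C57BL/6. In the knockout allele, a cassette with eGFP and a neomycin resistance gene takes the place of the whole coding sequence of dendrin in every cell of the mouse, and within the glomerulus dendrin is a podocyte protein. For each mouse 1 Affymetrix expression array was hybridized with glomerular RNA. Values are log2 intensities after GCRMA, a background correction and normalization. Undetected probe sets can have an identical value on several arrays, a floor that differed between probe sets. A probe set is called dim here where its mean over the 6 arrays was under log2 4. Ddn, the targeted gene, was at 3.80 to 3.81 in the 3 knockout mice and at 12.22 to 12.81 in the 3 control mice, so that the arrays matched their labels. The correlation between arrays, over probe sets that are not dim, was 0.973 to 0.995.

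RNA of the defining endothelial genes was present in the whole glomeruli. Pecam1, Cdh5, Emcn, Ehd3, Plvap and Eng were above log2 9 on every array, and 38 of the 39 genes were not dim. The exception, Podxl2, encodes the sialomucin endoglycan and had the lowest value of the array on all 6 arrays. Vwf, which encodes von Willebrand factor, was just above the dim level, at 4.55 to 4.63 in knockout and 4.58 in each control mouse. Its value was identical in all control mice and in knockout 2. It may thus be at background, although it is counted among the 38. Of the lymphatic endothelial genes, Prox1 and Lyve1 were dim, whereas Flt4 and Pdpn, which podocytes also express, were not.

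Most endothelial genes differed little between knockout and control glomeruli, and more of them were lower than higher. Among the 38 genes that are not dim, knockout glomeruli had the lower mean for 27 and the higher mean for 11, and the median difference was -0.065 on the log2 scale. Over all 10379 genes that are not dim, 39.8% were lower and the median difference was 0.030. The differences of the 38 ran from -0.31 for Mmrn2 (1.24-fold lower) to 0.24 for S1pr1, and 19 genes differed by less than 0.1. Whether the genes as a set were lower was not tested. If they were, fewer endothelial cells and less RNA per endothelial cell could not be told apart in whole glomeruli.

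The study filtered its probe sets by a fold over 1.5 and an unadjusted p under 0.05, and its methods name SAM. At these thresholds with limma, and with 1 probe set per gene, no endothelial gene passed, against 0.395% of all genes that are not dim. None had an adjusted p under 0.05 (limma, Benjamini-Hochberg over all probe sets), and the lowest adjusted p of the 38 was 1. Of all genes that are not dim, 0.00963% had one, which was the targeted gene Ddn alone. At an unadjusted p under 0.05, limma counted 5 genes lower and 1 higher in knockout glomeruli, and SAM, the test named in the methods, counted the same 6 genes. The 5 lower genes, Mmrn2, Meis2, Erg, Emcn and Calcrl, are 13.2% of the 38, against 2.58% of all genes that are not dim. The 1 higher gene, Nostrin, is 2.63% of the 38, against 5.75%. These counts changed with 1 array left out: 2 of the 38 genes were at an unadjusted p under 0.05 without knockout 1, without knockout 2 or without knockout 3, and 9 without control 2. Of the lower genes, 8 were counted without control 2 and 3 without control 3. A fit to fewer arrays has fewer degrees of freedom for every gene. The share of all genes in those fits is not given here, so the changes are not particular to endothelial genes.

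**Figure D1:**
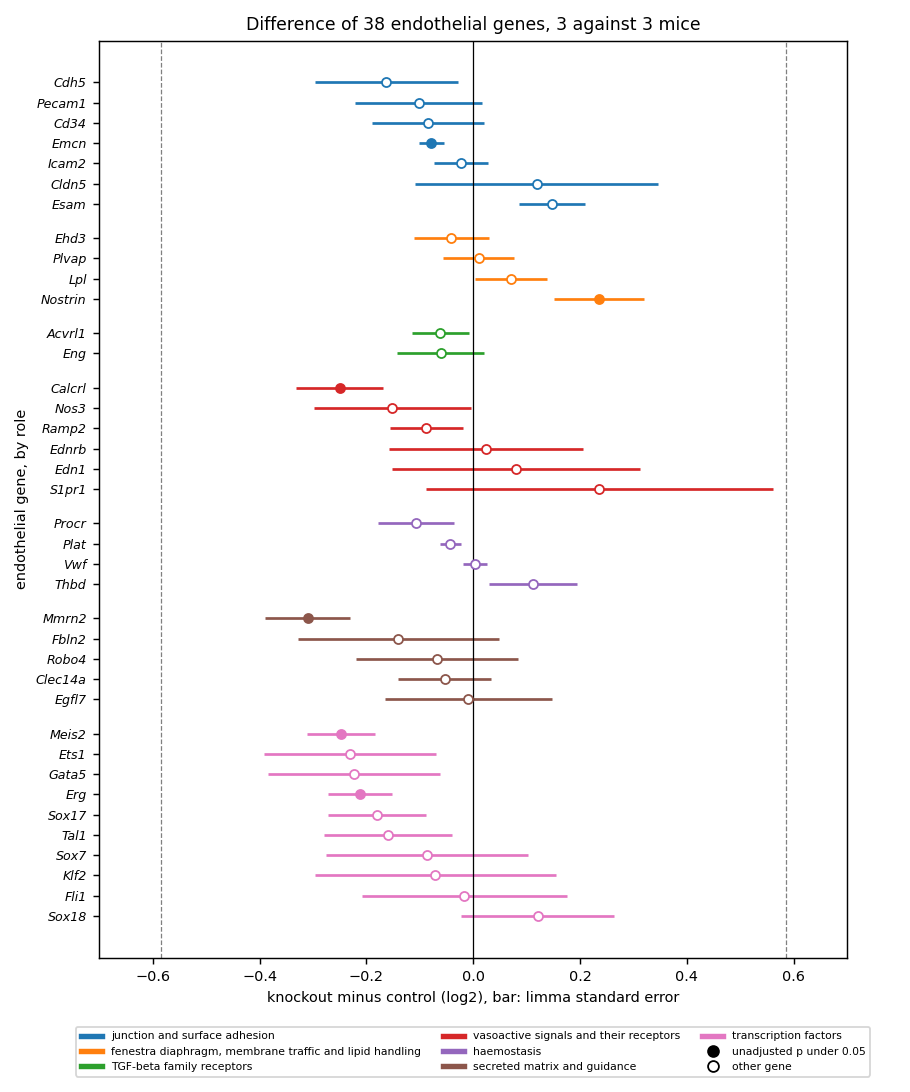
Difference between knockout and control (log2, x axis) of the 38 endothelial genes that are not dim, ordered by role, with the standard error from limma as a bar. Filled circles are the 6 genes at an unadjusted p under 0.05, the dashed lines mark a 1.5-fold difference, and all 38 circles lie between them, from -0.31 for Mmrn2 to 0.24 for S1pr1 and Nostrin.

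The precision of 3 mice against 3 was enough to bound most of these differences. For 30 of the 38 genes (78.9%), the 95% confidence interval of the difference lay within a 1.5-fold change in either direction, as for 78.6% of all genes that are not dim. The other 8 genes were Cldn5, Edn1, Ets1, Fbln2, Gata5, Klf2, S1pr1 and Sox7. Among them, the interval of S1pr1 alone reached beyond a 2-fold change (-0.64 to 1.11). With 3 mice a group, the exact permutation p of a gene is at least 0.1, its value where the groups do not overlap.

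All 3 knockout mice were below all 3 control mice for 6 of the 38 endothelial genes, against 4.5% of all genes that are not dim. They were above the control mice for 1 gene, against 9.36%. The 6 were the 5 genes above and Plat, whose values were 14.64, 14.66 and 14.69 in knockout and 14.73, 14.70 and 14.69 in control glomeruli. Plat encodes tissue plasminogen activator, and its groups were separated by 0.00092.

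Multimerin 2, the product of Mmrn2, is a glycoprotein of the endothelial extracellular matrix that binds the receptors Clec14a and Cd93. Its level was 12.71, 12.69 and 12.80 in knockout mice and 13.03, 12.92 and 13.18 in control mice. Knockout mice had a mean of 12.73 ± 0.060 (SD, n = 3), and control mice one of 13.04 ± 0.13 (SD, n = 3). Every knockout value was thus below the lowest control value, with a gap of 0.12 between the groups. The difference of the means was -0.31 (standard error 0.079, 95% confidence interval -0.52 to -0.096, unadjusted p = 0.0151 from limma, exact permutation p = 0.1). The other 3 probe sets of Mmrn2 were lower too, by -0.51, -0.30 and -0.32. They read the same transcripts on the same arrays and are not independent of the first. With 1 array left out, the unadjusted p of limma ranged from 0.00966 to 0.0532, above 0.05 without knockout 1 or knockout 2, and the difference from -0.37 to -0.24.

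Neither receptor of multimerin 2 passed the test. Clec14a, a lectin-like receptor of endothelial cells, was 12.11 ± 0.15 (SD, n = 3) in knockout mice against 12.16 ± 0.052 (SD, n = 3) in their controls, and the 95% confidence interval of the difference was -0.29 to 0.18. Cd93, a related receptor that was not among the 40 genes, was at 0.21 with a standard error of 0.24. The groups overlapped for these probe sets. A second probe set of Clec14a had every knockout value below every control value, with a difference of -0.14 (standard error 0.078). None of the remaining secreted and guidance genes passed the test. Egfl7, a secreted factor of endothelial cells, was at -0.0093, Robo4, an endothelial guidance receptor, at -0.068 and the matrix gene Fbln2 at -0.14 (standard error 0.19).

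Calcrl encodes the receptor of adrenomedullin, which it forms together with the partner protein Ramp2. The level of Calcrl was 12.55, 12.63 and 12.60 in knockout mice and 12.98, 12.70 and 12.84 in control mice. The groups did not overlap, and the spread was larger among control mice. The difference was -0.25 (1.19-fold lower, standard error 0.081, unadjusted p = 0.0334 from limma), and that of its second probe set -0.31 (unadjusted p = 0.0067). For Ramp2, the values were 11.59, 11.61 and 11.61 in knockout and 11.70, 11.56 and 11.80 in control glomeruli. Here control 2 was below the knockout mice, and the difference of -0.088 (standard error 0.068) did not pass the test (unadjusted p = 0.26 from limma). Without control 2, Ramp2 was among the genes at an unadjusted p under 0.05 (0.0209), with a difference of -0.15. Calcrl was no longer there (0.0987 at most) without knockout 1, knockout 2, knockout 3 or control 3.

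Among the other vasoactive genes, Nos3, the endothelial nitric oxide synthase, was 9.31 ± 0.16 (SD, n = 3) in knockout mice against 9.46 ± 0.21 (SD, n = 3) in their controls. Its difference of -0.15 was of the size of its standard error (0.15). Nostrin encodes a trafficking protein that moves this enzyme away from the plasma membrane. It was 9.98, 10.05 and 10.05 in knockout mice and 9.95, 9.66 and 9.77 in control mice. For Nostrin every knockout value exceeded every control value, the 1 such gene of the 38, but knockout 1 and control 1 were only 0.032 apart. The difference was 0.24 (standard error 0.084, unadjusted p = 0.045 from limma), and its p was above 0.05 without knockout 1, knockout 2, knockout 3, control 2 or control 3.

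Edn1, which encodes the vasoconstrictor endothelin 1, and its receptor gene Ednrb differed by 0.080 and 0.024, with standard errors of 0.23 and 0.18. The 3 probe sets of Ednrb lay on both sides of 0, from -0.13 to 0.024. S1pr1, the receptor of sphingosine 1-phosphate that stabilizes endothelial junctions, had the largest spread between mice of all 38 genes. Its level was 10.73, 10.53 and 10.45 in knockout mice and 9.79, 10.29 and 10.92 in control mice. The control mice held both the lowest and the highest value, and the difference of 0.24 had a standard error of 0.32. Without control 3, the difference was 0.53, and without control 1 it was -0.036.

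**Figure D2:**
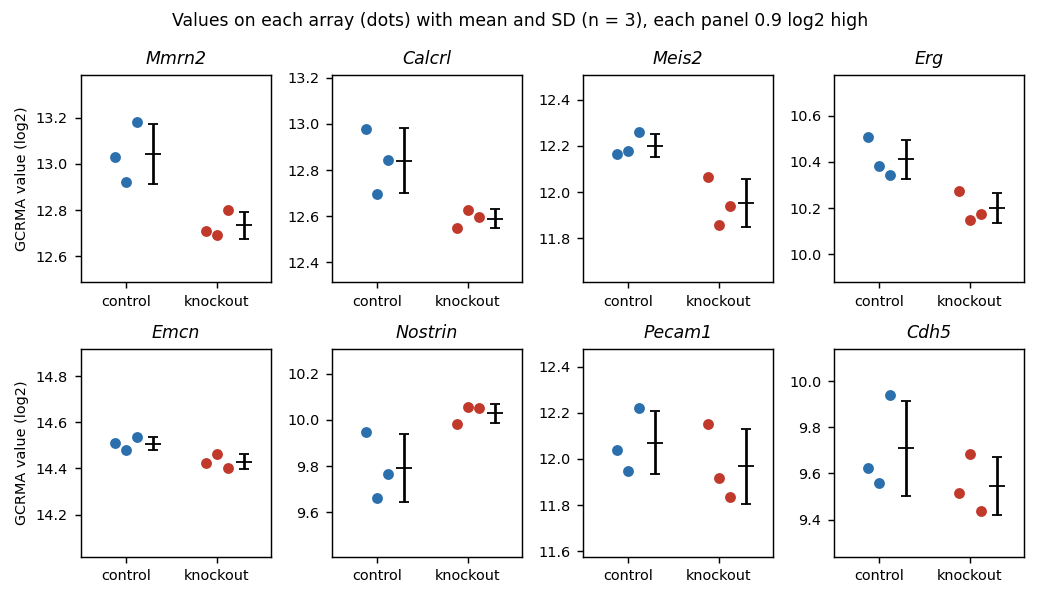
GCRMA values (log2, y axis) of 8 endothelial genes in the 3 control mice (blue) and 3 knockout mice (red), with the mean and SD beside them. Mmrn2, Calcrl, Meis2, Erg and Emcn had all knockout values below all control values, Nostrin had them above, and Pecam1 and Cdh5, shown as defining endothelial genes, overlapped.

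Of the 10 endothelial transcription factors, 9 were lower in knockout mice, with Sox18 as the exception, and their median difference was -0.17. Over all genes that are not dim, 39.8% were lower. Among the 10, 2 were lower at an unadjusted p under 0.05, against 2.58% of all genes that are not dim. Erg, an ETS factor that drives junction genes such as Cdh5, was 10.27, 10.15 and 10.18 in knockout mice and 10.51, 10.38 and 10.34 in control mice. The difference was -0.21 (1.16-fold lower, standard error 0.060, unadjusted p = 0.0213 from limma). The highest knockout mouse stayed below the lowest control mouse. The p of Erg was 0.0225 to 0.0689 with 1 array left out, and above 0.05 without knockout 2 or knockout 3.

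Meis2, a homeobox factor, was 12.06, 11.86 and 11.94 in knockout mice and 12.17, 12.18 and 12.26 in control mice. Its groups did not overlap, with a difference of -0.25 (1.19-fold lower, standard error 0.064, unadjusted p = 0.016 from limma). The other 3 probe sets were at -0.30, -0.29 and -0.23, all of the same sign. Meis2 is not restricted to endothelial cells and is also expressed in the stroma of the kidney. Without control 3 or knockout 3, its p was above 0.05.

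Ets1, a further ETS factor, was 12.49, 12.30 and 12.14 in knockout mice and 12.55, 12.31 and 12.77 in control mice. The groups overlapped, and the difference was -0.23 with a standard error of 0.16. Of its other 3 probe sets, those at -0.39 and -0.30 had groups that did not overlap and that at -0.17 had groups that did, and none was at an unadjusted p under 0.05. Gata5, a zinc finger factor that marks glomerular endothelium, was 9.51, 9.79 and 9.57 in knockout mice and 10.13, 9.77 and 9.65 in control mice. Its difference of -0.22 (standard error 0.16) rested largely on control 1, without which it was -0.084. The second probe set of Gata5 was at -0.24 (standard error 0.097) without overlap. Sox17 was 11.46, 11.49 and 11.38 in knockout and 11.76, 11.66 and 11.45 in control glomeruli, a difference of -0.18 (standard error 0.092). Control 3 lay within the knockout range, and without it Sox17 was at -0.27 (unadjusted p = 0.0108 from limma). The related factors Sox7 and Sox18, which act with Sox17 in vessel formation, were at -0.087 and 0.12. Tal1, Klf2, a factor induced by blood flow, and Fli1 were at -0.16, -0.071 and -0.017, with overlapping mice.

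Promoter windows of the genes at an unadjusted p under 0.05 are shown because ETS factors, Erg among them, are regulators of endothelial genes. The sequences are the 250 bases before the transcription start from RefSeq (build GRCm38.p6), 5′ to 3′ on the strand of the gene. RefSeq windows were given for 21 of the 40 genes, 28 windows in all, and Mmrn2 was not among them. Capitals mark the ETS core AGGAAG or its reverse complement CTTCCT. The window of Calcrl lies at chr2:84425267-84425516 (minus strand), that of Emcn at chr3:137340828-137341077 (plus), that of Nostrin at chr2:69135550-69135799 (plus) and that of Meis2 at chr2:116064620-116064869 (minus). For Erg, the window at chr16:95459349-95459598 (minus) is shown, the 1 of its 3 windows with this core.
Calcrl: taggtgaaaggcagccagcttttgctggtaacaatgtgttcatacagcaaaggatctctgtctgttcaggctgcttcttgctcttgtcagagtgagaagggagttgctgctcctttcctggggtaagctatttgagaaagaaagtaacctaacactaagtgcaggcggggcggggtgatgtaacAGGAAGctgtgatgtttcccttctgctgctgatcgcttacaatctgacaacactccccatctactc
Emcn: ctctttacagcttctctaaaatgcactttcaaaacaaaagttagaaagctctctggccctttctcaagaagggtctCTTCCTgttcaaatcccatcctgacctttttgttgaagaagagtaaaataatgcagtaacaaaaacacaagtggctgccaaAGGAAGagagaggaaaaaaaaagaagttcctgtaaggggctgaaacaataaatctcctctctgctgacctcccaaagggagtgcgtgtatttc
Erg: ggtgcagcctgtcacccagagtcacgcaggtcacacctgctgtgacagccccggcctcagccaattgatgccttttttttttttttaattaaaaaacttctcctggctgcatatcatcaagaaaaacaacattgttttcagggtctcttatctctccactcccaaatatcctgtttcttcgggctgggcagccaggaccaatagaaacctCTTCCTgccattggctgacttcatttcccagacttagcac
Nostrin: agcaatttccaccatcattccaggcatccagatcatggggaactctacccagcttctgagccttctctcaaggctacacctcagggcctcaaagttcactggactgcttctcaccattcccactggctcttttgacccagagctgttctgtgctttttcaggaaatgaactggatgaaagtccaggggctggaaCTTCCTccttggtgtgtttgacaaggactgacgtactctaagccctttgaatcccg
Meis2: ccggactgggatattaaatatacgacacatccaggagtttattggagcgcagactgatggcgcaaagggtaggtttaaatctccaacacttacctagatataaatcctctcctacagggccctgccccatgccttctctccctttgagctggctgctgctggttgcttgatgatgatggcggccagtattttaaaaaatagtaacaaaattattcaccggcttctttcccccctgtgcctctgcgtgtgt

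The core was found once in the windows of Calcrl, Erg and Nostrin, and 2 times in that of Emcn, and that of Meis2 had no match. On either strand, AGGAAG was present in 10 of the 28 windows of endothelial genes (35.7%) and in 29.5% of all 32851 windows of the same length. A second ETS core, CCGGAA, which cannot share its GGAA with the first, was in 0 of the 28 and in 12% of all windows. Either ETS core was in 10 of the 28 windows (35.7%) and in 38.2% of all windows. The GATA core AGATAA was in 2 of the 28 (7.14%, against 9.99%), the SOX core ACAATG in 2 (7.14%, against 10.7%) and CACCC, bound by KLF factors, in 16 (57.1%, against 52%). These are matches of letters in a short window and were not tested.

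Of the 7 junction and surface genes that are not dim, Emcn was at an unadjusted p under 0.05, although its difference was smaller than those of Cdh5, Esam, Cldn5, Pecam1 and Cd34. Emcn encodes endomucin, a sialomucin of the capillary glycocalyx. Its level was 14.42, 14.46 and 14.40 in knockout mice and 14.51, 14.48 and 14.53 in control mice. The groups were separated by 0.015, and the difference was only -0.079 (1.06-fold lower, standard error 0.024, unadjusted p = 0.026 from limma). Values of this gene were high, but below the highest value of any probe set, 15.55. Its unadjusted p was above 0.05 without knockout 1, knockout 3, control 1 or control 3.

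Pecam1, the adhesion molecule CD31, was 12.15, 11.92 and 11.83 in knockout mice and 12.04, 11.95 and 12.22 in control mice. The groups overlapped, with a difference of -0.10 (95% confidence interval -0.42 to 0.22). Cdh5, which encodes VE-cadherin of the adherens junction, was 9.51, 9.69 and 9.44 in knockout mice and 9.62, 9.56 and 9.94 in control mice, with the highest value in control 3. Its difference was -0.16 (standard error 0.13), and -0.046 without control 3. A second probe set of Cdh5 was at -0.36 (standard error 0.16), and its groups did not overlap. Cldn5, the claudin of endothelial tight junctions, was 12.09 ± 0.13 (SD, n = 3) in knockout mice against 11.97 ± 0.39 (SD, n = 3) in their controls. Its control values spread from 11.71 to 12.42, control 2 being highest, and without control 2 it was higher in knockout by 0.34 (unadjusted p = 0.0303 from limma). Esam, Icam2 and Cd34, further adhesion and surface proteins, differed by 0.15, -0.023 and -0.085.

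Ehd3, Plvap and Lpl were close between the groups. Ehd3, which encodes a membrane recycling protein that in the kidney is enriched in glomerular endothelium, was 13.78, 14.02 and 13.89 in knockout mice and 13.90, 13.94 and 13.97 in control mice. Plvap, the protein of the diaphragms that span the fenestrae of some capillaries, was 12.17, 12.31 and 12.28 in knockout mice and 12.32, 12.27 and 12.14 in control mice. Both groups covered the same range. From which vessels of the preparation the Plvap RNA came was not tested. The 95% confidence intervals of the difference were -0.23 to 0.15 for Ehd3 and -0.17 to 0.19 for Plvap. Lpl, the lipase of the vessel wall, was at 0.071 (standard error 0.068).

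Eng, the co-receptor endoglin, and Acvrl1, the type I receptor ALK1, bind ligands of the TGF-beta family. Eng was 13.19, 13.30 and 13.04 in knockout mice and 13.21, 13.20 and 13.31 in control mice. The difference of -0.061 (standard error 0.081) was within the spread between mice, and a second probe set was at 0.036. Acvrl1 differed by -0.062 (standard error 0.053), and its second probe set by -0.27 (standard error 0.12). Among the genes of blood clotting, Thbd, which encodes thrombomodulin, was at 0.11 (standard error 0.082), Procr, the protein C receptor, at -0.11 (standard error 0.070) and Plat at -0.043 (standard error 0.019).

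Probe sets of the same gene mostly pointed the same way. Excluding dim ones, 63 probe sets remained, of which 11 were lower in knockout glomeruli at an unadjusted p under 0.05 and 1 was higher. Over all 19619 probe sets that are not dim, 3.21% were lower and 4.91% higher at this p. The 12 are not independent, since most come from few genes. They belong to Mmrn2 (4 of its 4), Meis2 (3 of 4), Calcrl (2 of 2), Erg, Emcn and Nostrin. For 16 genes more than 1 probe set was not dim, and in 14 of these genes all had the same sign. The exceptions were Eng and Ednrb.

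**Figure D3:**
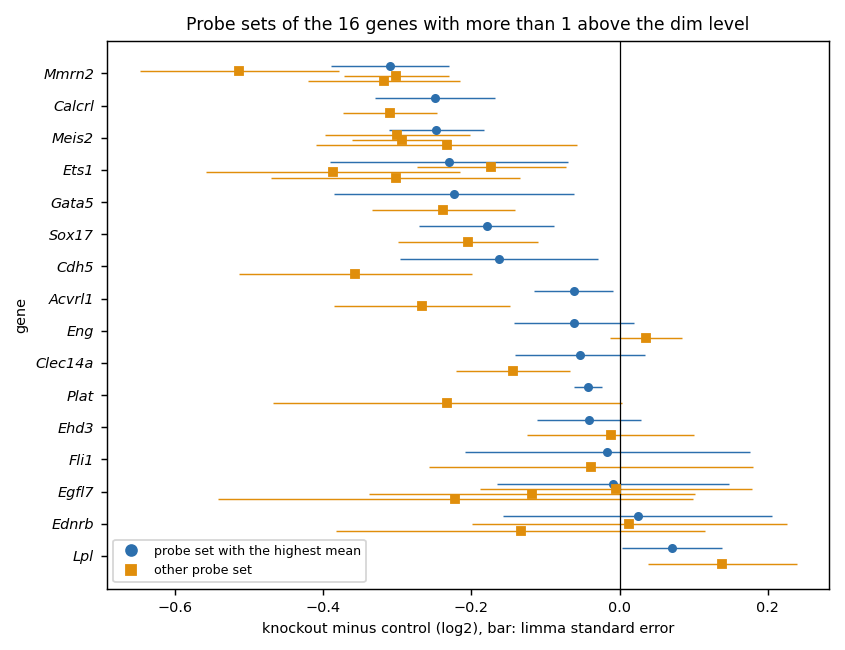
Difference between knockout and control (log2, x axis) for each probe set that is not dim of the 16 genes with more than 1, with the standard error from limma as a bar. Blue circles are the probe sets with the highest mean and orange squares the others. All 4 probe sets of Mmrn2, of Meis2 and of Ets1 lie below 0, and those of Eng and Ednrb fall on both sides.

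The low values of endothelial genes in knockout mice were shared unevenly over the arrays. Relative to the mean of the 6 arrays, the median of the 38 genes was -0.038, -0.0030 and -0.061 on the knockout arrays and 0.032, -0.025 and 0.070 on the control arrays. Control 2 thus lay between knockout 1 and knockout 2, and the groups overlapped. Control 3 held the highest value for 17 of the 38 genes and control 1 for 10, whereas control 2 held the lowest value for 10 and knockout 3 for 9. The median difference ran from -0.093 to -0.032 with 1 array left out in turn.

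**Figure D4:**
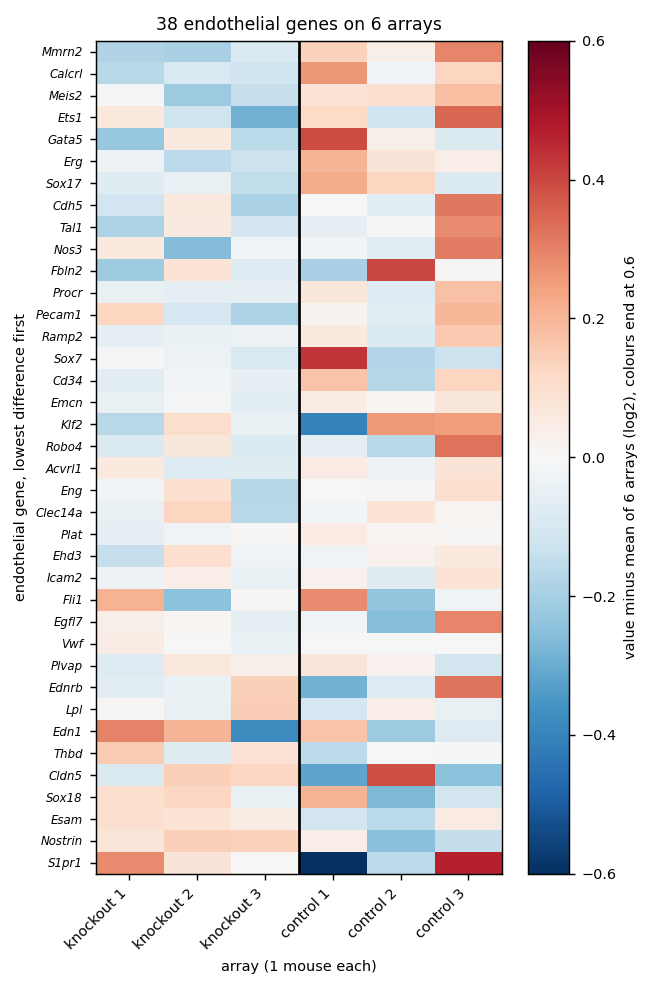
Value of each of the 38 endothelial genes (rows, lowest difference at the top) on each of the 6 arrays (columns), as the difference from the mean of the gene over the arrays (log2, red higher, blue lower, colours end at 0.6). Control 3 was highest for 17 genes, and among the strongest colours are S1pr1, Sox7 and Klf2 on control 1, genes with large spread within a group.

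A second list of 30 endothelial gene names, which share none with the 40, was set beside them. It holds Adgrl4 under its older name Eltd1 as well. The list was read on the same 6 arrays and chosen with earlier results of these data known, so it is not independent of the first. Of its genes, 27 were not dim. Knockout mice had the lower mean for 23 and the higher mean for 4, and the median difference was -0.17. At an unadjusted p under 0.05, limma counted 4 of the 27 lower, against 2.58% of all genes that are not dim, and 1 higher, against 5.75%. None of the 27 differed by more than 1.5-fold at that p, or had an adjusted p under 0.05. The 4 counted as lower include the receptors of vascular endothelial growth factor Kdr (-0.22, standard error 0.064) and Flt1 (-0.18, standard error 0.051) and the angiopoietin receptor Tek (-0.18, standard error 0.044). Kdr was 12.43, 12.60 and 12.39 in knockout mice and 12.68, 12.69 and 12.71 in control mice, without overlap. The fourth was Aqp1 (-0.33, standard error 0.12), a water channel that the proximal tubule also expresses. Rapgef3, an exchange factor activated by cyclic AMP, was higher by 0.20 (standard error 0.061). The largest differences were those of the arterial connexin gene Gja5 (-0.92, standard error 0.56), the apelin receptor gene Aplnr (0.67, standard error 0.85) and the Notch ligand gene Dll4 (-0.33, standard error 0.13), none of which passed the test. On the arrays, the median of this list followed that of the 40 genes, at -0.044, -0.0044 and -0.13 in knockout and 0.078, -0.029 and 0.13 in control mice.

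Genes of other cells in the preparation also differed between arrays. Over all 10379 genes that are not dim, 6225 had the higher mean in knockout mice, and the median difference was 0.030. Of 13 podocyte genes, 11 had the higher mean in knockout mice, and the median difference was 0.098. Their median was 0.036, 0.070 and 0.050 on the knockout arrays and -0.14, 0.10 and -0.18 on the control arrays, so that control 1 and control 3, with the highest endothelial medians, had the lowest podocyte medians. Their summed unlogged value was 110722 to 116057 in knockout and 100261 to 121859 in control mice. Of the 10 mesangial and smooth muscle genes that are not dim, 8 had the higher mean in knockout mice, with a median difference of 0.074 and a summed unlogged value of 44518 to 48036 in knockout and 43639 to 46891 in control mice. Of these, the smooth muscle gene Tagln alone passed the fold and p thresholds of the study with limma, as did 0.395% of all genes that are not dim. Tagln was 10.52, 10.11 and 10.14 in knockout mice and 9.38, 10.01 and 9.35 in control mice (0.68, 1.6-fold higher, unadjusted p = 0.0458 from limma). Acta2, which encodes smooth muscle actin, was at 0.44 (standard error 0.19) with overlapping groups, and Cnn1 was dim. Control 2 stood apart in genes of leukocytes (median -1.67, with Cd3e and Cd79a dim) and of the loop and distal nephron (1.84, with 7 of 13 genes dim, Aqp2 and Aqp3 among them) and of the proximal tubule (1.15). The summed value of the 14 leukocyte genes that are not dim was 27531 to 48249 in knockout and 9367 to 47560.2 in control mice, and that of the 11 proximal tubule genes 2539.5 to 3976 and 1434 to 6408. Leukocytes express some of the endothelial genes as well, among them Pecam1, Fli1, Ets1 and S1pr1. The part of these cells in the endothelial differences was not tested. Without control 2, the median of the 38 genes was -0.093, and Mmrn2, Calcrl, Meis2, Erg and Emcn were still at an unadjusted p under 0.05, together with Cd34, Procr and Ramp2 among the lower genes and Cldn5 as a higher one.

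**Figure D5:**
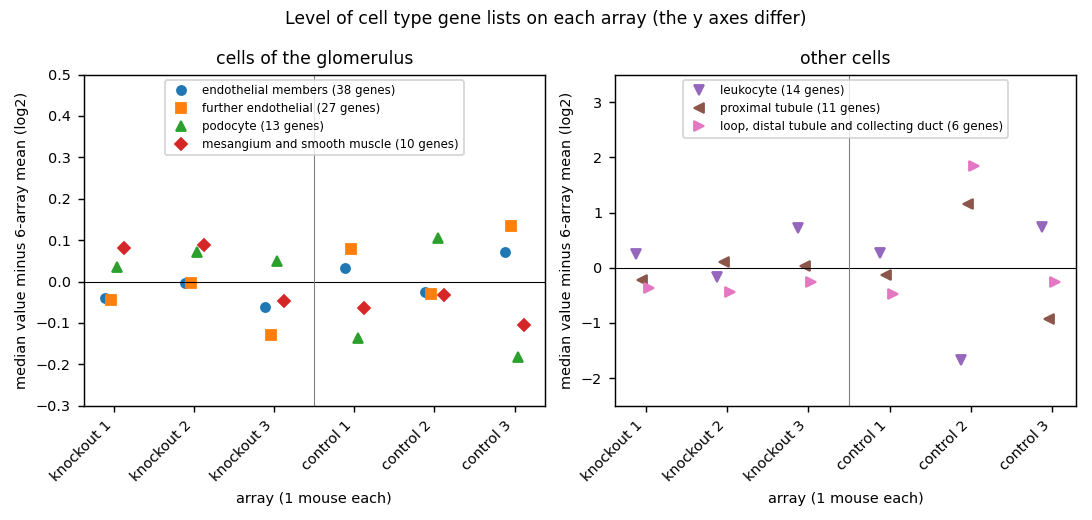
Median of each cell type gene list on each array, as the difference from the mean over the 6 arrays (log2, y axis), for cells of the glomerulus (left) and other cells (right, wider axis). Endothelial medians were 0.070 on control 3 and -0.061 on knockout 3, and control 2 stood apart in leukocyte (-1.67) and tubule genes (1.84 and 1.15).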

How the data were processed

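Glomerular RNA of 3 dendrin knockout and 3 littermate control mice was measured on Affymetrix arrays, 1 per mouse. The deposited values are log2 intensities that the authors made with GCRMA (version 2.30.0): background subtraction, quantile normalization and summarization of probes. No array was pooled. Precision is limited by the number of arrays. Arrays were grouped by their titles. Probe sets were paired with genes by the platform annotation, and no genome coordinate was taken from the array. All 45101 probe sets were fitted with limma (version 3.58.1, R 4.3.3), lmFit and eBayes, knockout minus control, two-sided, without covariate or filter, with Benjamini-Hochberg adjustment over all of them. The fit had 4 residual and 0.312 prior degrees of freedom. Confidence intervals are those of this fit. SAM was coded in R, pooling its statistic across the 20 permutations of array labels. Both were also run on simulated data with independent normal noise, where only the mean error of the limma difference had to stay under a limit. Of the 40 genes, those planned to have values on every array in the text were the 6 defining genes, those at an unadjusted p under 0.05 and the 10 largest differences. Plat and Ramp2 among the 40, whose values on every array are also given, were named after their values were seen. So were Cd93, Tagln and Acta2 outside the 40. The members, gene lists and motifs were chosen with earlier results of these data known. Lists are described by counts and medians, without a set test, for endothelium, podocyte, mesangium and smooth muscle, proximal tubule, loop and distal nephron, leukocyte, erythroid and platelet, and lymphatic endothelium. The 2 erythroid and platelet genes that are not dim had a median difference of 0.66 and the 2 lymphatic genes -0.16.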

Additional observations from a re-analysis of the deposited data

How the results depend on the processing

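The count of 0 endothelial genes past the fold and p criterion, the count of 0 at an adjusted p under 0.05 and the negative sign of the median difference (-0.093 to -0.032) held under all 18 alternatives: SAM, an intensity trend with robust prior, probe set filters (mean of log2 4, mean of log2 6, span of 0.1), median centring, a second quantile normalization, an offset of 16, array weights, the replicate block, the mean of a gene's probe sets, 1 probe set per gene and leaving out every array once. The 6 genes at an unadjusted p under 0.05 kept their sign under all of them. With 1 array left out, the count at an unadjusted p under 0.05 was 2 to 9, that of lower genes 2 to 8, and the genes whose groups do not overlap were 6 to 12 lower and 1 to 4 higher, where fewer arrays make a separation easier by construction. The share of all genes counted under each alternative is not given here. Median centring, which moved the median of all genes that are not dim from 0.030 to 0.049, gave 4 genes without overlap on the lower side in place of 6 and 2 in place of 1 on the higher side, left 4 lower genes at an unadjusted p under 0.05 and put Esam at an unadjusted p under 0.05. Emcn was above an unadjusted p of 0.05 with each filter, with median centring and with the mean of probe sets, and Nostrin with array weights and the second quantile normalization. Array replicate numbers are shared by the groups but nothing ties equal numbers to a litter. Deviations from the group mean correlated by 0.095, 0.35 and 0.25 between equal numbers, and every array correlated best with its own number. With the replicate block, which leaves fewer degrees of freedom for every gene, 2 genes were at an unadjusted p under 0.05, both lower, Erg and Mmrn2. Genes near the dim level, Vwf and Fbln2, are limited by signal over background.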
